A study of Mus musculus with 8 samples.

Results

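The complement and clotting cascades of mouse liver were examined as 49 genes, among the 21899 genes of the deposited table. The 49 were taken by name and cover both cascades from their first proteases to their end products and inhibitors. Values were read from RNA sequencing of 8 liver libraries, labelled as 8 h with ConA (concanavalin A, a jack bean lectin that drives T cell hepatitis in mice). Wild-type mice gave 4 libraries, and mice deficient in P2X4R, the ion channel opened by ATP that P2rx4 encodes, gave the other 4. The sample labels name that genotype a P2X4R knockdown, whereas the series' design text gives P2X4R-/-, without naming the altered exons or cells. Both groups received ConA. No value below shows what ConA did, since untreated livers were not analysed here. The labels give no sex, age, strain or batch and leave unsaid whether libraries stem from separate animals, so p-values measure the spread between these libraries, which may be technical. Libraries are called deficient 1 to 4 and wild type 1 to 4 after the number in their titles. Where livers are counted or compared below, the word stands for these libraries.

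Complement is a set of plasma proteases and binding proteins that tag and perforate foreign or damaged surfaces. It starts on antibodies (the classical route), on sugars (the lectin route) or by itself (the alternative route), and each route splits C3 and then C5 before the terminal proteins assemble a pore. Clotting is another protease cascade, started by tissue factor or by contact with charged surfaces, in which thrombin turns fibrinogen into fibrin and antithrombin, heparin cofactor II and protein C hold it back. Hepatocytes make most of these plasma proteins, and several of them are acute phase proteins whose liver mRNA rises in inflammation. A few, such as properdin and factor VIII, come largely from other cells.

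Library totals ran from 15445285 to 16604190 counted reads. Levels are given as CPM (reads of a gene relative to all reads of its library, the latter adjusted by TMM, edgeR's trimmed-mean factors of 0.918 to 1.08). Fold changes are deficient minus wild type on the log2 scale, and adjusted p-values come from edgeR's quasi-likelihood test over 11380 genes with a threshold of 0.05. P2rx4 itself, which checks the labels, had 286, 401, 467 and 516 reads in the deficient and 692, 888, 906 and 898 reads in the wild-type libraries. It fell by 1.18 (SE 0.19, adjusted p = 0.00481), to 44.2% of the wild-type level. In bulk RNA, fewer cells of a type and less RNA per cell cannot be told apart.

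Of the 49 complement and clotting genes, 47 had enough reads to be tested. Of these, 13 were lower in the deficient livers, 0 were higher and 34 did not pass. Over all genes tested, 10.6% were lower and 9.27% were higher. These shares also stand beside the counts by role given below, and no role was tested as a set. The 13 were the lectin-route genes Mbl2, Masp1 and Masp2, the terminal genes Hc and C9, the complement inhibitor Cd59a, the clotting genes F3, F7, Klkb1, F5 and F13b, and the thrombin inhibitors Serpinc1 and Serpind1. Their log2 fold changes were negative under every one of the 18 processing settings tried, and for C9, F13b, F3 and Serpind1 the test was passed in all 18. At an unadjusted p under 0.05 the edgeR test gave 21 lower genes and 1 higher gene, Mbl1, where 18% of all genes were lower and 17.2% higher. DESeq2, the other count test, gave 16 lower and 0 higher, against 13.9% and 12% of all genes.

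The median log2 fold change of the 47 was -0.365, against -0.0015 over all genes tested, and 38 of the 47 were negative on the TMM scale. The 4 deficient values lay below the 4 wild-type values for 17 of the 47, and above them for 0. Among all genes tested, 12.3% had such lower, separate groups. The plot of fold changes by role shows that negative values were spread over every stage of both cascades except fibrinogen. With a library left out, counts changed for all genes and for these. Without wild type 3, 4 were called lower, against 4.54% of all genes, and without deficient 3, 7, against 5.61%. Without deficient 1, 8 were lower, against 6.81%, and without wild type 1, 16, against 9.14%. Over the 47, deficient 1 was the lowest deficient library for 29 and wild type 1 the lowest wild-type library for 32, while wild type 3 was the highest for 28. Without deficient 1 and wild type 1 together, a setting added after seeing the data, 10 were lower and 0 higher, against 7.15% and 5.67% of all genes.

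**Figure D1:**
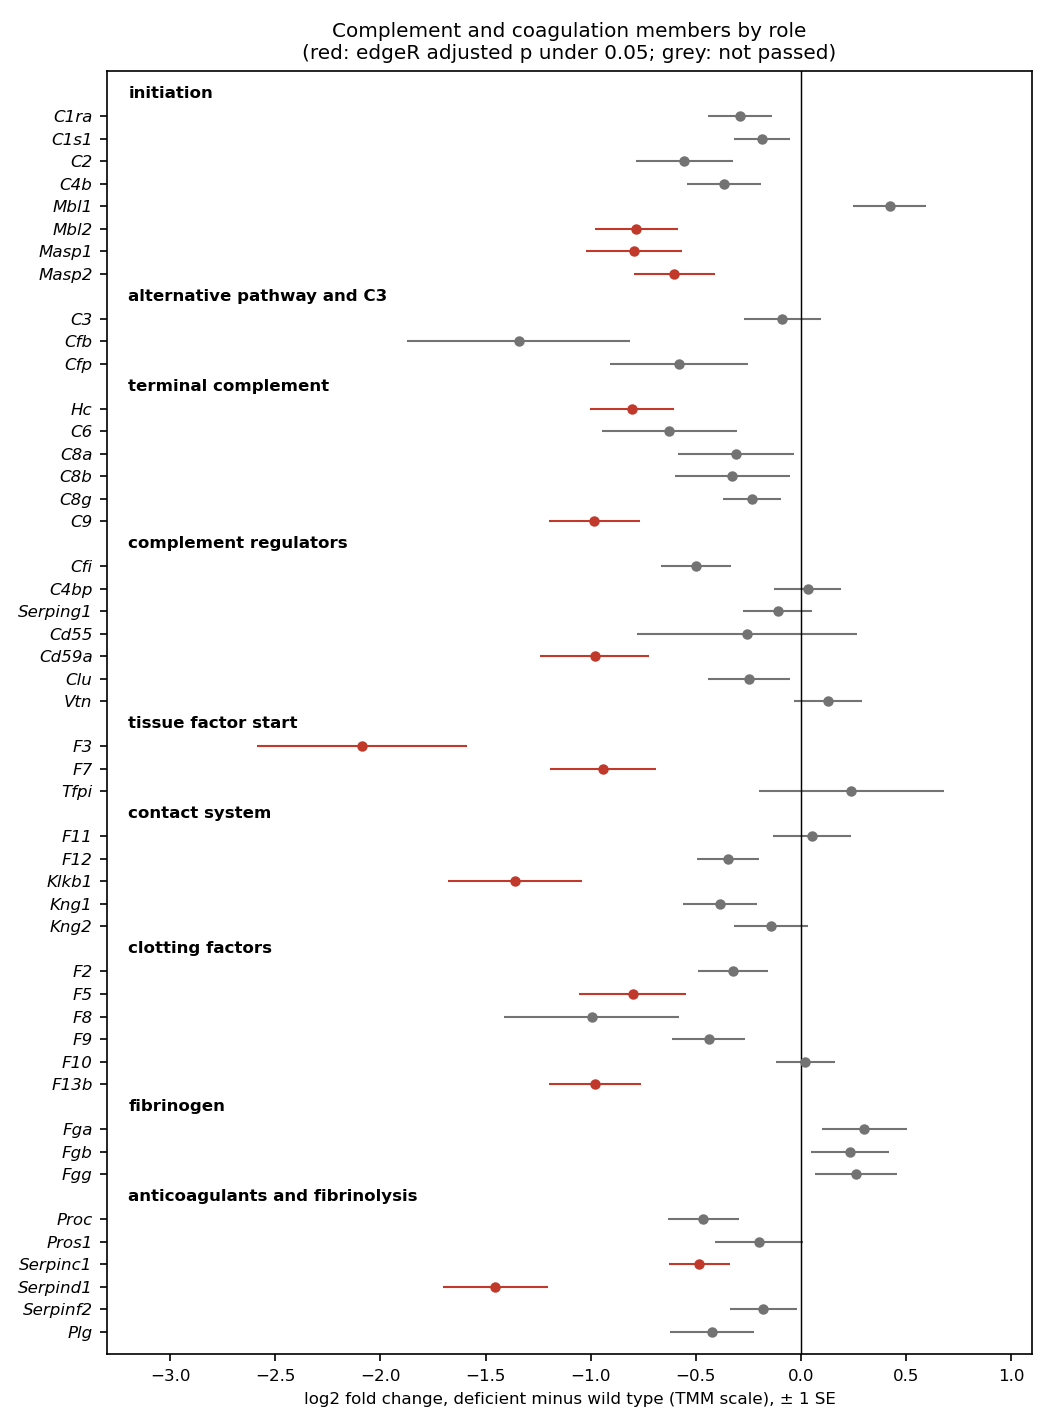
Log2 fold change (x axis, deficient minus wild type on the TMM scale) of the 47 tested complement and clotting genes, one row per gene, grouped by role. Points are edgeR estimates, bars are 1 SE to each side, red points passed at an adjusted p under 0.05 and grey points did not. All 13 red points lie left of 0, from -0.483 for Serpinc1 to -2.09 for F3, and the 3 fibrinogen genes lie right of it in grey.

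Genes of the lectin route fell, with the exception of Mbl1, while those of the classical route did not pass. Of 8 initiation genes 3 were lower and 0 higher, with a median of -0.46. Mbl2 (ENSMUSG00000024863), which encodes a mannose-binding lectin that recognises microbial sugars, stood at 202, 327, 198 and 279.8 CPM in deficient 1 to 4 and at 360.0, 454, 501 and 415 CPM in wild type 1 to 4. The highest deficient liver was below the lowest wild-type liver. Mbl2 fell by 0.78 (SE 0.20, adjusted p = 0.0195), and it missed the threshold when deficient 3 or wild type 3 was left out (adjusted p = 0.0563 and 0.064). Mbl2 also had the highest level per length of the 8, with a mean of 309 FPKM (reads scaled to gene length and library total) over the 8 livers.

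Mbl1, the other mannose-binding lectin gene, did not pass. It was at 147, 119, 175 and 176 CPM in the deficient and 116, 95.8, 137 and 112 CPM in the wild-type livers. Deficient 1, 3 and 4 lay above every wild-type liver, and deficient 2 lay among them. Its log2 fold change was 0.42 (SE 0.17, adjusted p = 0.107). With library totals used without TMM it was 0.57 (adjusted p = 0.0408), with limma on log2(FPKM + 1) it was 0.56 (adjusted p = 0.0445), and with a pseudocount of 0.1 it was 0.56 (adjusted p = 0.0438).

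The 2 proteases that the lectins carry fell with Mbl2. Masp1, whose product activates Masp2, was at 45.0, 80.7, 81.2 and 82.6 CPM in the deficient and 114, 98.7, 170.0 and 119 CPM in the wild-type livers. Deficient 1 stood well below the other deficient livers and wild type 3 well above the other wild-type livers, and the groups did not overlap. It fell by 0.79 (SE 0.23, adjusted p = 0.031). Masp2, whose product cleaves C4 and C2, was at 41.5, 68.1, 70.2 and 61.0 and 81.5, 79.9, 115 and 88.4 CPM, again without overlap, and fell by 0.60 (SE 0.19, adjusted p = 0.0483). Both calls lay close to the threshold. Masp1 passed in 9 and Masp2 in 4 of the 18 settings, and without wild type 3 they were at -0.61 (adjusted p = 0.101) and -0.47 (adjusted p = 0.152). Without each of the 8 libraries in turn Masp2 did not pass, and Masp1 also missed it without deficient 1, deficient 3 or wild type 4 (adjusted p = 0.0559, 0.0568 and 0.0564). The spans of Masp1 and Masp2 overlap the opposite-strand genes Rtp4 by 525 and Tardbp by 3118 bases, and since the use of strand in counting is not given in the sources used here, reads from the shared bases cannot be assigned.

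The classical-route genes had smaller negative values. C1ra and C1s1, which encode the proteases of C1, did not overlap between the groups, with 217, 275, 293 and 286 against 294, 329.8, 338 and 346 CPM for C1ra and 274, 272, 271 and 291 against 318, 325, 311 and 308 CPM for C1s1. Their log2 fold changes were -0.29 (SE 0.15, adjusted p = 0.204) and -0.19 (SE 0.13, adjusted p = 0.346), and C1s1 turned to 0.10 when libraries were scaled to hepatocyte genes. C4b, which encodes the C4 that both routes cleave, was at -0.36 (SE 0.18, adjusted p = 0.163). C2, the partner protease of C4, had the lowest level of the group with a mean of 2.26 FPKM. It was at 8.27, 6.77, 4.28 and 9.25 CPM in the deficient and 11.9, 10.1, 10.02 and 9.998 CPM in the wild-type livers, which did not overlap, and at -0.56 (SE 0.23, adjusted p = 0.109). C2 shares 19439 bases with the same-strand entry Gm20547, so its count is uncertain. That of C4b is uncertain too, since it has a near-identical copy, C4a, for which the deposited table has no entry by that name.

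Within the alternative route and C3, none of 4 genes passed. C3 (ENSMUSG00000024164), the protein on which all routes converge, was the most abundant of the 49 per length after fibrinogen, with a mean of 2730.0 FPKM. It stood at 10489.9, 14879.5, 17446 and 11739 CPM in the deficient and 12582, 15266, 14666 and 15461 CPM in the wild-type livers. The deficient values spread on both sides of the wild-type values. The log2 fold change was -0.09 (SE 0.18, adjusted p = 0.765) and was slightly above 0 under 5 settings, listed with the processing. Cfp, which encodes the convertase stabiliser properdin, was at -0.58 (SE 0.33, adjusted p = 0.237).

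Cfb and Cfd, the alternative-route protease and its activator, were near the limit of detection. Cfb had 2, 4, 14 and 6 reads in the deficient and 18, 11, 18 and 13 reads in the wild-type livers, a mean of 0.237 FPKM. It shares 6107 bases with Gm20547, which is listed at 0 reads, and its count is uncertain. Its log2 fold change was -1.34 (SE 0.53, adjusted p = 0.0926), and without deficient 3 it was -2.01 (adjusted p = 0.0426). Cfd had 27 reads in deficient 1, 14 in wild type 3, 1 in wild type 4 and 0 in the other 5 livers, and was not tested. A count of 0 allows up to 3 reads, or 0.181 to 0.194 CPM in these libraries, and covers counting error only.

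Terminal complement genes fell at its first and last steps. Of 7 genes 6 were tested, 2 were lower, and all 6 were negative on the TMM scale, with a median of -0.475, while C8g turned to 0.059 with hepatocyte scaling. Hc (ENSMUSG00000026874), the mouse gene of C5, stood at 242, 391.9, 294 and 347 CPM in the deficient and 419, 562, 700.3 and 544 CPM in the wild-type livers, with no overlap. Wild type 3 was the highest and deficient 1 the lowest. Hc fell by 0.80 (SE 0.20, adjusted p = 0.019), and missed the threshold when deficient 3 or wild type 3 was left out (adjusted p = 0.0539 and 0.0644).

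C9 (ENSMUSG00000022149; chromosome 15, 6474808 to 6528232 on the plus strand, as the table lists it without naming a build), which polymerises into the membrane pore, fell to 50.6% of its wild-type level. It stood at 48.6, 79.2, 61.0 and 60.1 CPM in the deficient livers, a mean of 62.2 ± 12.6 (SD, n = 4). In the wild-type livers it stood at 79.6, 133, 153 and 127 CPM, a mean of 123 ± 30.9 (SD, n = 4). The groups met but did not overlap, since wild type 1 was just above deficient 2. C9 fell by 0.98 (SE 0.22, adjusted p = 0.0121), with values of -1.16 to -0.70 over the 18 settings, each past the threshold.

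The genes of the proteins between C5 and C9 did not pass. C8g, the small C8 chain and the most abundant of the group per length (mean 130.2 FPKM), had separate groups at 179, 182, 167 and 190.3 and 205, 216, 228 and 194 CPM but a log2 fold change of -0.23 (SE 0.14, adjusted p = 0.257). C8a and C8b, which encode the larger C8 chains, were at -0.31 and -0.33 (adjusted p = 0.46 and 0.429). C6 was at -0.62 (SE 0.32, adjusted p = 0.192). C7, the least abundant (mean 0.579 FPKM), had 125 reads in deficient 1, 21, 19 and 1 in the other deficient livers and 4 to 9 in the wild-type livers. It was not tested with the filter used, and passed as higher in 1 setting, without deficient 4.

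Among 7 complement regulators 1 was lower and 0 higher, with a median of -0.247, where 10.6% of all genes were lower. Cd59a, a membrane protein that stops C9 from polymerising, stood at 9.59, 11.4, 4.63 and 11.6 CPM in the deficient and 17.0, 15.9, 22.9 and 17.4 CPM in the wild-type livers. The groups did not overlap, and deficient 3 was the lowest by a wide margin. Cd59a fell by 0.98 (SE 0.26, adjusted p = 0.0236), and without wild type 3 it was at -0.86 (adjusted p = 0.0751). Its near copy Cd59b had at most 1.98 CPM in any liver, and reads shared between the 2 copies make both counts uncertain.

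Cfi, the protease that inactivates C3b and C4b, came next. It was at 322, 481, 456 and 412 CPM in the deficient and 517, 619, 642 and 585 CPM in the wild-type livers, which did not overlap. The log2 fold change was -0.50 (SE 0.17, adjusted p = 0.0536), and the adjusted p was 0.0155 in DESeq2, 0.046 without deficient 2 and 0.0423 without wild type 1. The other regulators were near 0. Serping1, the inhibitor of C1 and plasma kallikrein, was at -0.11 and Clu, which encodes clusterin, at -0.25 (adjusted p = 0.672 and 0.4), while C4bp, which binds C4b, was at 0.03 (adjusted p = 0.909). Vtn, which encodes vitronectin and had the highest level of the group (mean 1951 FPKM), was at 0.13 (SE 0.16, adjusted p = 0.608). Cd55, which encodes decay accelerating factor and had the lowest (mean 0.485 FPKM), was at -0.25 with an SE of 0.52. With library totals alone Serping1 was at 0.04.

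The trigger of the clotting cascade showed the largest fall of the 47 genes. F3 (ENSMUSG00000028128; chromosome 3, 121517186 to 121528697 on the plus strand) encodes tissue factor, the membrane receptor that binds factor VII and starts clotting. It stood at 10.98, 81.4, 17.5 and 41.4 CPM in the deficient livers, a mean of 37.8 ± 31.9 (SD, n = 4), and at 115, 137, 211 and 179.6 CPM in the wild-type livers, a mean of 161 ± 43.1 (SD, n = 4). Deficient 1 and 3 were far below deficient 2 and 4, yet each was below every wild-type liver. F3 fell by 2.09 (SE 0.50, adjusted p = 0.0164), to 23.5% of the wild-type level, and by 1.78 to 2.79 over the 18 settings, passing in each.

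F7, the protease that tissue factor binds, fell as well. It was at 36.8, 50.2, 36.3 and 66.4 CPM in the deficient and 59.2, 87.8, 128 and 89.2 CPM in the wild-type livers, and deficient 4 lay above wild type 1. F7 fell by 0.94 (SE 0.25, adjusted p = 0.0248). Its adjusted p was 0.0598, 0.0723 and 0.0819 with deficient 1, deficient 3 or wild type 3 left out. Tfpi, the inhibitor of the tissue factor and factor VII complex and largely an endothelial product, had 12 to 40 reads in each liver (mean 0.255 FPKM) and a log2 fold change of 0.24 (SE 0.44, adjusted p = 0.731), a sign that turned without deficient 1.

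The upstream sequence of F3 is printed here because F3 had the largest fall, together with that of Serpind1, which had the smallest p of the 13. Both are the 250 bases before the gene's start in RefSeq on GRCm38.p6, 5′ to 3′ on the gene's strand, and so lie in another build's coordinates than those listed above. F3 covers chr3:121723287-121723536 and Serpind1 chr16:17331121-17331370, both on the plus strand. Capitals would mark a match to one of 5 motifs, each searched on both strands of the 250 bases before and 50 after the start, and neither has one. The motifs were TTCNNNGAA for STAT3, CTGGGAA for the IL-6 response element, TTNNGCAA for C/EBP, GTTAAT as an HNF1 half-site and GGAANTTCC for NF-kB.
F3: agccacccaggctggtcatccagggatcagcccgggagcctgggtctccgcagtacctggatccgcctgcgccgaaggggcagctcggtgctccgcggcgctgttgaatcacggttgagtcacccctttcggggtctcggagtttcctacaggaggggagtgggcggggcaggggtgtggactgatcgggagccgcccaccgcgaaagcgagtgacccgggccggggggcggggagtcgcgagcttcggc
Serpind1: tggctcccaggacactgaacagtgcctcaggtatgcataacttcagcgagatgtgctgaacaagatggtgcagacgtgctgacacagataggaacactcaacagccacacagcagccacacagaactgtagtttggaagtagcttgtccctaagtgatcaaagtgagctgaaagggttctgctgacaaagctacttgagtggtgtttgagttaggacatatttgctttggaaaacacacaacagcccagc

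**Figure D2:**
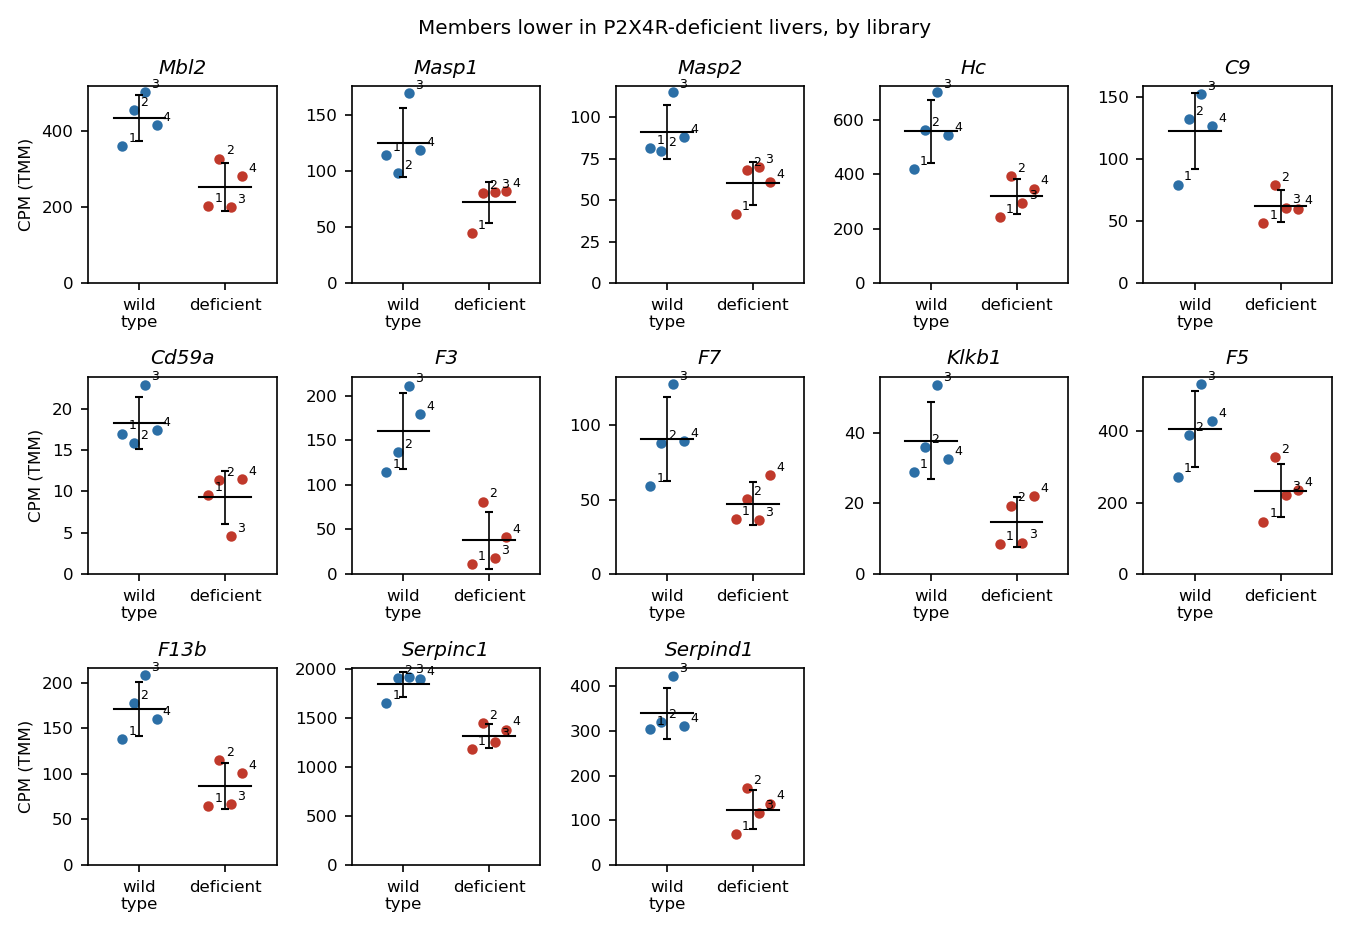
Level of each of the 13 lower genes in every library (y axis, TMM CPM from 0, one panel per gene with its own scale), wild type in blue and deficient in red, with the library number beside each point. Horizontal lines are group means and bars 1 SD to each side (n = 4). The groups are separate in all panels but F7 and F5, and wild type 3 is the highest wild-type library in each.

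Of 5 contact-system genes 1 was lower and 0 higher, with a median of -0.346. Klkb1 (ENSMUSG00000109764) encodes plasma prekallikrein, which factor XII activates and which releases bradykinin from kininogen. It was at 8.45, 19.4, 8.91 and 22.1 CPM in the deficient and 28.8, 36.1, 53.5 and 32.6 CPM in the wild-type livers, and had the lowest level of the group per length (mean 4.86 FPKM). The groups did not overlap, and deficient 1 and 3 were again below deficient 2 and 4. Klkb1 fell by 1.36 (SE 0.32, adjusted p = 0.0149), to 38.9% of the wild-type level. It passed in 17 of 18 settings and was at -1.15 (adjusted p = 0.05) without wild type 3. Klkb1 shares 25189 bases with the same-strand entry Gm45753, which is listed at 0 reads, and its count is uncertain.

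F12, which encodes the initiator of the contact route, had separate groups at 421, 477, 526 and 466 and 532, 643, 603 and 623 CPM. Its log2 fold change was -0.35 (SE 0.15, adjusted p = 0.113), and DESeq2 called it lower (adjusted p = 0.0398). Kng1, which encodes kininogen and was the most abundant (mean 613 FPKM), was at -0.39 (SE 0.18, adjusted p = 0.14) and its copy Kng2 at -0.14 (adjusted p = 0.6). The 2 kininogen genes are close copies, so the split of reads between them is uncertain. F11, the factor that links contact to factor IX, was at 0.05 (SE 0.18, adjusted p = 0.866), with 85.0, 97.1, 99.7 and 132 CPM in the deficient and 104, 75.9, 120.0 and 98.4 CPM in the wild-type livers, which overlapped widely.

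Among 6 clotting factor genes downstream, 2 were lower and 0 higher, with a median of -0.619. F13b (ENSMUSG00000026368), the carrier subunit of the factor that crosslinks fibrin, was at 64.3, 115, 66.8 and 101 CPM in the deficient and 138, 178, 209 and 160.0 CPM in the wild-type livers. No deficient liver reached the lowest wild-type liver. F13b fell by 0.98 (SE 0.22, adjusted p = 0.0127) and passed in all 18 settings. F5, the cofactor with which factor X cleaves prothrombin, was at 147, 327, 223 and 236 CPM in the deficient and 273, 390.3, 533 and 428 CPM in the wild-type livers. Deficient 2 lay above wild type 1, so the groups overlapped. F5 fell by 0.80 (SE 0.25, adjusted p = 0.0453), but passed in 8 of 18 settings, and its adjusted p was 0.0933, 0.103 and 0.0799 with deficient 1, 3 or 4 left out and 0.0735, 0.138 and 0.0916 with wild type 2, 3 or 4 left out.

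F2, F9 and F10, which encode vitamin K-dependent proteases, did not pass. F2, which encodes prothrombin and was the most abundant (mean 459.5 FPKM), was at 1651, 2065, 1864 and 1979.9 CPM in the deficient and 1809.7, 2577, 2576 and 2496 CPM in the wild-type livers. Wild type 1 lay among the deficient livers, while the other wild-type livers lay above them. The log2 fold change was -0.32 (SE 0.17, adjusted p = 0.186), and without wild type 1 it was -0.45 (adjusted p = 0.0492). F9 was at -0.44 (SE 0.17, adjusted p = 0.096), and at -0.58 (adjusted p = 0.0319) without wild type 1. F10 was at 0.02 (SE 0.14, adjusted p = 0.929), with means of 443 ± 32.2 CPM in the deficient and 436 ± 20.9 CPM in the wild-type livers (SD, n = 4). F8, which encodes the cofactor of factor IX and had the lowest level (mean 0.122 FPKM, 8 to 32 reads), was at -0.99 (SE 0.42, adjusted p = 0.11).

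Serpinc1 and Serpind1, whose products inhibit thrombin, both fell. Of 6 anticoagulant and fibrinolysis genes 2 were lower, and all 6 were negative on the TMM scale, with a median of -0.444, while Pros1 and Serpinf2 turned to 0.128 and 0.117 with hepatocyte scaling. Serpind1 (ENSMUSG00000022766; chromosome 16, 17149235 to 17161439 on the plus strand), which encodes heparin cofactor II, a thrombin inhibitor, was at 69.8, 172, 116 and 137 CPM in the deficient livers, a mean of 124 ± 42.8 (SD, n = 4). In the wild-type livers it was at 303, 319, 423 and 312 CPM, a mean of 339 ± 56.2 (SD, n = 4). The lowest wild-type liver was well above the highest deficient liver. Serpind1 fell by 1.45 (SE 0.25, adjusted p = 0.00546), to 36.5% of the wild-type level, and by 1.21 to 1.66 over the 18 settings. The gene lies within Pi4ka on the opposite strand, which had 3404 reads over the 8 livers against 28935 for Serpind1.

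Serpinc1, which encodes antithrombin, the main inhibitor of thrombin and factor X, had a smaller fold change. It was at 1182, 1449, 1258 and 1379.9 CPM in the deficient and 1649, 1907, 1913 and 1895 CPM in the wild-type livers. The groups were separate, and wild type 1 lay below the other wild-type livers, which were close to one another. Serpinc1 fell by 0.48 (SE 0.14, adjusted p = 0.0365), but passed in 6 of 18 settings, with an adjusted p of 0.0805, 0.0837 and 0.0598 when deficient 1, 3 or 4 was left out and 0.0878, 0.0963 and 0.0939 when wild type 2, 3 or 4 was. Scaled to hepatocyte genes it was at -0.20 (adjusted p = 0.292).

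The protein C pair and the fibrinolysis genes did not pass. Proc, which encodes protein C, was at -0.47 (SE 0.17, adjusted p = 0.071), and its adjusted p was 0.0312 in DESeq2 and 0.0391 with wild type 1 left out. Pros1, which encodes its cofactor protein S and was the least abundant (mean 16.4 FPKM), was at -0.20 (adjusted p = 0.533). Plg, which encodes plasminogen, the precursor of the enzyme that dissolves fibrin, was the most abundant (mean 439 FPKM) and was at 1002, 1584, 1484 and 1552 CPM in the deficient and 1383, 1942, 2279 and 1936 CPM in the wild-type livers. Deficient 2 to 4 lay above wild type 1 and below the other wild-type livers, and the log2 fold change was -0.42 (SE 0.20, adjusted p = 0.153). Serpinf2, which encodes the plasmin inhibitor, was at -0.18 (SE 0.16, adjusted p = 0.459).

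Genes of fibrinogen, the substrate of the cascade, did not pass in either direction. Its 3 chains come from Fga, Fgb and Fgg, neighbours on chromosome 3, and were the most abundant of the 49 genes per length, with means of 6686, 5605 and 6627 FPKM. Fga (ENSMUSG00000028001) was at 20252, 23065, 23312 and 22019 CPM in the deficient and 10865, 21313, 19175 and 20533 CPM in the wild-type livers. Fgb (ENSMUSG00000033831) was at 20443, 23631, 26556 and 21478 and 13527, 22886, 19877 and 21972 CPM, and Fgg (ENSMUSG00000033860) at 17152, 14497, 13295 and 15379 and 8528, 16144, 12289.6 and 13349 CPM. In all 3 genes wild type 1 was the lowest of the 8 livers by a wide margin, and the other wild-type livers overlapped or adjoined the deficient ones.

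The log2 fold changes were 0.30 (SE 0.20, adjusted p = 0.316) for Fga, 0.23 (SE 0.18, adjusted p = 0.396) for Fgb and 0.26 (SE 0.19, adjusted p = 0.365) for Fgg. They stayed positive under all 18 settings, but without wild type 1 they were 0.11, 0.08 and 0.10. As a share of all counted reads, without TMM, the 3 chains together took 6.21, 6.17, 6.80 and 6.17% in the deficient livers and 3.29, 5.53, 4.74 and 5.37% in the wild-type livers, which did not overlap. All 49 genes together took 9.29 to 10.9% in the deficient and 6.55 to 9.34% in the wild-type livers. Without fibrinogen and C3 the share was 1.96 to 2.24% in the deficient and 2.0 to 2.52% in the wild-type livers.

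**Figure D3:**
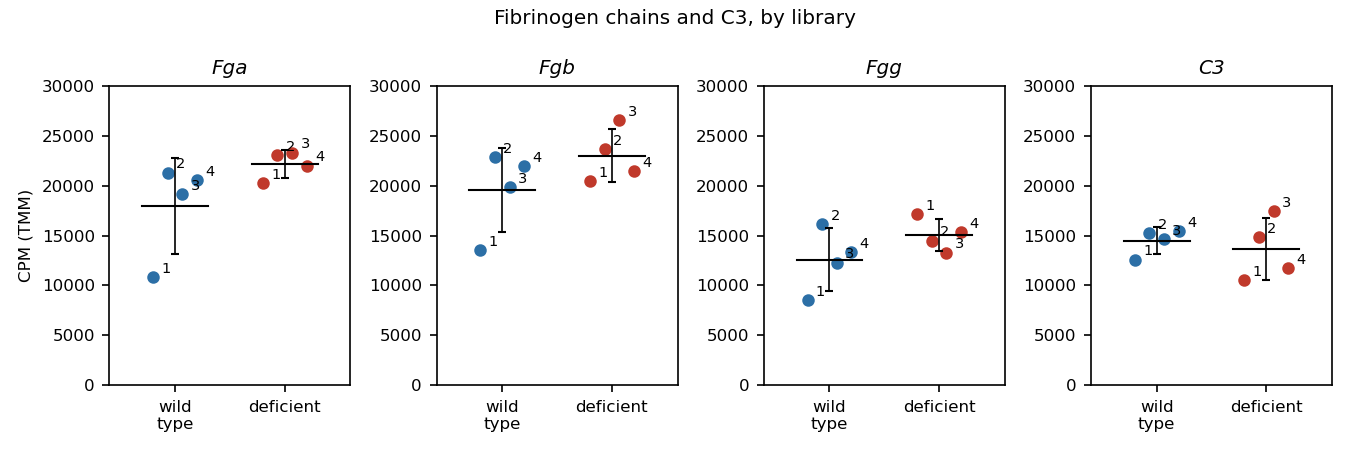
Level of the 3 fibrinogen genes and of C3 in every library (y axis, TMM CPM from 0, shared scale), wild type in blue and deficient in red, with library numbers, group means and bars of 1 SD to each side (n = 4). Wild type 1 is the lowest point of each fibrinogen panel, and the deficient values of C3 lie on both sides of the wild-type mean.

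The upstream sequences of the 3 chains are printed because these neighbouring genes are the most abundant of the 49 and none was called lower. They are the 250 bases before each start in RefSeq on GRCm38.p6, 5′ to 3′ on the gene's strand: Fga at chr3:83025903-83026152 (plus), Fgb at chr3:83049864-83050113 (minus) and Fgg at chr3:83007474-83007723 (plus). Capitals mark matches to the motifs given above, on either strand, and no 2 matches share a base.
Fga: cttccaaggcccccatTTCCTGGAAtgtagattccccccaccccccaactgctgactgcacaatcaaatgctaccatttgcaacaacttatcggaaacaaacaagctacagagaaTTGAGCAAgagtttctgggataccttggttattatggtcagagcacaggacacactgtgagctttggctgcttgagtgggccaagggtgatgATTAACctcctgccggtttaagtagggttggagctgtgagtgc
Fgb: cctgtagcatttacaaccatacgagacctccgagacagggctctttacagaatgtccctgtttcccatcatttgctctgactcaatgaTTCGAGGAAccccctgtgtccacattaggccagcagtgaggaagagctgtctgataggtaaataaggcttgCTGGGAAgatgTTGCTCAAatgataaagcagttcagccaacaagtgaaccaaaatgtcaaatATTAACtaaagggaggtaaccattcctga
Fgg: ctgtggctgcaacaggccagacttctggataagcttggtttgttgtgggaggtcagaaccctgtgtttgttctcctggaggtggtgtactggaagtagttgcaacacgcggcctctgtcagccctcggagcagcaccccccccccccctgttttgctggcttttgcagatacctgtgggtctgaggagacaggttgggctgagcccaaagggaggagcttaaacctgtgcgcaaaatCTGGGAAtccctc

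From the 5′ end, Fga has matches to STAT3 (first base 234 bases before the start), C/EBP (135 bases before) and the HNF1 half-site (43 bases before). Fgb has STAT3 (162 bases before), the IL-6 response element (91 bases before), C/EBP (80 bases before) and the HNF1 half-site (29 bases before), and Fgg has the IL-6 response element (13 bases before). RefSeq promoters of 300 bases matched 39 of the 49 genes. The STAT3 letters were in 9 of the 39, and in 8.3% of all 32851 promoters. The IL-6 response element was in 10 (11.1% of all), C/EBP in 11 (10.8% of all), the HNF1 half-site in 13 (7.1% of all) and NF-kB in 0 (0.928% of all). The units differ: a gene was counted if any of its promoters had the letters, whereas the share of all is per promoter. Among 12 of the lower genes with a promoter, 1 had the STAT3 letters, 1 the IL-6 response element, 3 those of C/EBP and 2 the HNF1 half-site, against 8, 9, 8 and 11 of the 27 other genes, and no difference between these counts was tested. A match describes letters in this window and not a bound site.

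Ratios of neighbouring genes were compared, and none passed after adjustment. Of the 49, 8 pairs lie within 30000 bases of each other, and the log2 ratio of each pair's CPM was compared between groups by an exact two-sided permutation test over 70 assignments, whose smallest p is 0.0286, with adjustment over the 8 pairs. The ratio of F11 to its neighbour Klkb1, 4657 bases away, was 3.33, 2.33, 3.49 and 2.58 in the deficient and 1.86, 1.07, 1.16 and 1.59 in the wild-type livers. These did not overlap, and differed by 1.51 (exact permutation p = 0.0286, adjusted p = 0.114), though the count of Klkb1 is uncertain, as given above. The ratio of Kng2 to Kng1 differed by 0.25 (exact permutation p = 0.0286, adjusted p = 0.114), with values of -2.26 to -2.13 in the deficient and -2.54 to -2.40 in the wild-type livers. F7 against F10, 1498 bases away, differed by -0.95 (exact permutation p = 0.0571, adjusted p = 0.152). The fibrinogen pairs differed by -0.06 (Fgg to Fga) and 0.09 (Fga to Fgb), and the other 3 pairs had an exact permutation p of 0.2 or more. With 4 against 4 libraries, no pair could pass after adjustment unless several reached the smallest p.

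**Figure D4:**
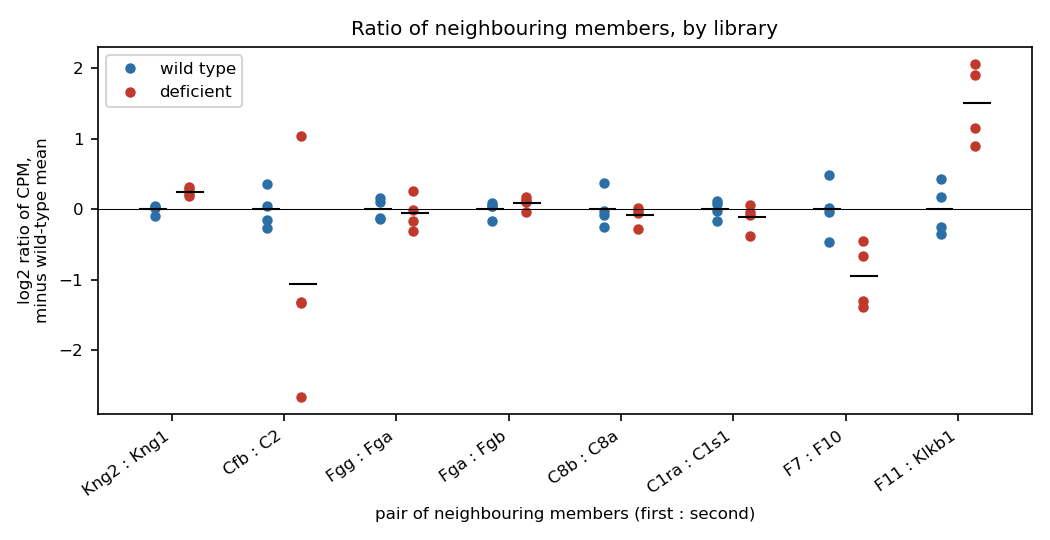
Log2 ratio of CPM for the 8 pairs of neighbouring complement or clotting genes (x axis), first gene over second, minus the wild-type mean (y axis), for each wild-type (blue) and deficient (red) library, with group means as lines. The red points of F11 to Klkb1 and of Kng2 to Kng1 lie above all blue points of their pair, and in the other 6 pairs red and blue points overlap.

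The scale chosen moved the values of all genes and so the members' counts. With library totals alone in place of TMM, the median of all genes tested was 0.143, 15.2% of genes were higher and 7.41% lower, and of the 47 genes 1 was higher (Mbl1) and 9 lower. The share of higher genes among all those called was 46.6% with TMM, 67.2% with library totals and 66.3% with limma on log2(FPKM + 1). A further scale, added after seeing the data, divided each library by the geometric mean of 7 hepatocyte marker genes. Then the median of all genes was 0.287, with 20.1% higher and 5.35% lower, a share of higher genes of 79.0%. On that scale 7 of the 47 were lower (Serpind1, C9, F13b, F3, Klkb1, Hc and Mbl2) and 4 higher. The 4 were Mbl1 at 0.71 (adjusted p = 0.0223), Fga at 0.60 (adjusted p = 0.027), Fgb at 0.53 (adjusted p = 0.0298) and Fgg at 0.58 (adjusted p = 0.0444). The median of the 47 was -0.217 with library totals and -0.081 with hepatocyte scaling, in both cases below that of all genes, and 35 and 29 of the 47 were negative.

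**Figure D5:**
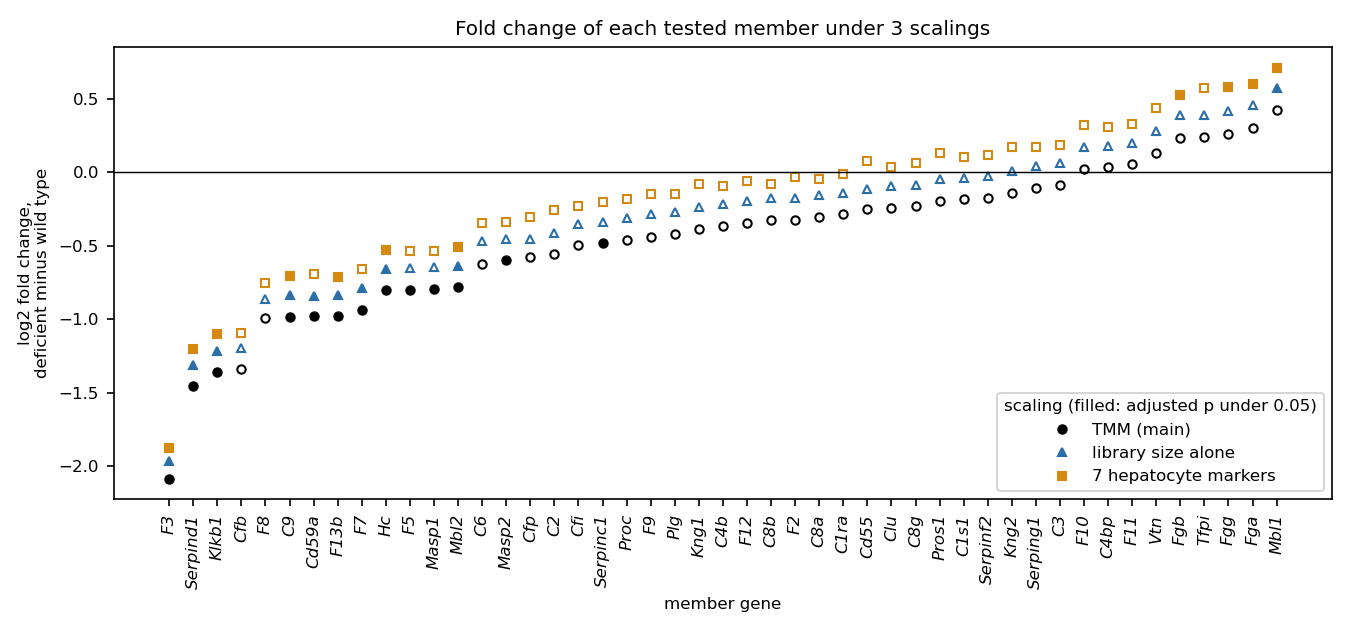
Log2 fold change (y axis, deficient minus wild type) of the 47 tested genes (x axis, ordered by value) under TMM (black circles), library totals alone (blue triangles) and scaling to 7 hepatocyte markers (orange squares), filled where the adjusted p was under 0.05. Filled symbols at the left number 13, 9 and 7, and those at the right 0, 1 and 4.

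Hepatocyte markers moved with these genes. All 7 in the table (Alb, Apoa1, Apob, Ttr, Serpina1a, Ahsg and Hnf4a) were negative, from -0.399 to -0.028 with a median of -0.354. None passed in edgeR, 4 had an unadjusted p under 0.05 and 4 had separate groups. Their summed level was 72704 to 100242 CPM in the deficient and 107782 to 121395 CPM in the wild-type livers, and no marker was at 0. The 7 genes listed above for the hepatocyte scale were called lower on a scale made from these same markers. Those calls are not a separate result, and the scale was added after seeing the data. Markers of other cell types moved too, where 10.6% of all genes tested were lower and 9.27% higher. Kupffer cell markers were lower in 3 of 6, with a summed level of 24.5 to 29.9 CPM in the deficient and 28.7 to 101 CPM in the wild-type livers, where wild type 1 was the highest. Stellate cell and fibroblast markers were lower in 2 of 7, at 83.2 to 159.5 against 139.9 to 216 CPM. Endothelial markers were lower in 1 and higher in 1 of 7 tested, at 46.3 to 77.7 against 37.2 to 95.6 CPM, and neutrophil markers were higher in 2 of 6, at 78.3 to 154 against 22.2 to 88.5 CPM. Summed levels were separate in 2 further marker sets. Cholangiocyte markers summed to 43.4 to 152 against 194 to 234 CPM, with 1 of 5 lower (Sox9, at -2.06, adjusted p = 0.0248). Of these only Sox9 had separate groups, at 9.655 to 96.7 against 144.5 to 164 CPM. Krt19, Krt7 and Epcam were negative and Spp1 positive, each with overlapping groups, and none of them passed. Platelet and megakaryocyte markers summed to 3.41 to 5.34 against 6.99 to 9.68 CPM, with 2 of 3 tested lower (Ppbp and Itga2b) and Gp1bb listed at 0 in every library. The part of these cells in the values of Cfp, F8, F3 and the further gene Thbs1 was not tested.

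Other genes of the 2 cascades, listed without regard to how they moved, numbered 62. Of these 61 were in the table and 46 were tested, of which 15 were lower, 3 higher and 28 did not pass, with a median of -0.473. Over all genes tested, 10.6% were lower and 9.27% higher. Without wild type 3 or deficient 3 the wider list gave 8 lower and 0 higher, where 4.54% and 5.61% of all genes were lower. On the lectin route, Colec10 and Colec11, which encode collectins that carry the same proteases as Mbl2, fell by 1.63 (SE 0.32, adjusted p = 0.00804) and 1.41 (SE 0.31, adjusted p = 0.0127). Colec10 was at 3.44, 4.47, 2.78 and 3.56 CPM in the deficient and 19.5, 8.58, 8.38 and 7.69 CPM in the wild-type livers, with wild type 1 far above the rest. Cpn2, a subunit of the carboxypeptidase that trims complement fragments and kinins, fell by 0.94 (adjusted p = 0.012), and Cfhr2, which encodes a relative of factor H, by 0.61 (adjusted p = 0.0234). Cfhr2 did not pass with deficient 1, deficient 3, wild type 2 or wild type 3 left out. The C1q genes C1qa, C1qb and C1qc, which macrophages make, were at -0.59, -0.78 and -0.84 and did not pass (adjusted p = 0.25, 0.172 and 0.0901), with wild type 1 highest in each.

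On the clotting side, Proz, which encodes protein Z, a cofactor for the inhibition of factor X, was at 70.1, 114, 106 and 109 CPM in the deficient and 184, 195, 258 and 181 CPM in the wild-type livers. The groups were separate, and Proz fell by 1.03 (SE 0.19, adjusted p = 0.00741). Its partner serpin gene Serpina10 was at 0.22 (adjusted p = 0.346). Hrg, which encodes histidine-rich glycoprotein, a heparin and plasminogen binder, fell by 0.98 (adjusted p = 0.0116), and F2r, which encodes a thrombin receptor, by 1.03 (adjusted p = 0.013). Ggcx, the carboxylase that vitamin K-dependent factors need, the von Willebrand factor protease Adamts13 and the inhibitor Tfpi2 also passed as lower (adjusted p = 0.0302, 0.0374 and 0.0464), in 9, 6 and 6 of the 18 settings. Where a single library was left out, Ggcx passed for deficient 2, wild type 1 and wild type 2, Adamts13 for deficient 4 and wild type 2, and Tfpi2 for wild type 4, and otherwise they missed the threshold.

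In fibrinolysis and its surroundings 4 of 10 tested were lower and 2 higher. Thbs1, which encodes the platelet and matrix protein thrombospondin 1, fell by 2.20 (SE 0.35, adjusted p = 0.00462). Plaur, the urokinase receptor, was at 19.8, 22.3, 15.6 and 16.1 CPM in the deficient and 62.4, 47.5, 30.4 and 31.5 CPM in the wild-type livers, all of which lay above them, and fell by 1.22 (adjusted p = 0.00818). S100a10, a plasminogen receptor subunit, fell by 0.60 (adjusted p = 0.0189). Its adjusted p was 0.0517 with deficient 3 left out and 0.0655 with wild type 3 left out.

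The 3 higher genes of the wider list were A2m, Vwf and Cpb2, the latter 2 named after their values were seen. A2m, which encodes the broad protease inhibitor alpha-2-macroglobulin, was at 482, 242, 762 and 285 CPM in the deficient and 226, 188, 88.2 and 149 CPM in the wild-type livers, with deficient 1 and 3 highest. It rose by 1.44 (SE 0.37, adjusted p = 0.0201). Vwf, which encodes the platelet-tethering von Willebrand factor of endothelial cells, rose by 1.27 (SE 0.36, adjusted p = 0.0303). Cpb2, which encodes an inhibitor of fibrinolysis that thrombin activates, was at 993, 846, 991 and 926 CPM in the deficient and 473, 746, 668 and 686 CPM in the wild-type livers, and rose by 0.55 (SE 0.17, adjusted p = 0.0424). With deficient 3 left out the adjusted p of A2m and Vwf was 0.0593 and 0.0891, and with wild type 3 left out 0.058 and 0.0743. That of Vwf was also 0.0506 with deficient 1 and 0.0664 with wild type 4 left out. Cpb2 passed only with deficient 2 left out, and its adjusted p was 0.0514 to 0.0923 when any other library was.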

How the data were processed

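Liver RNA was polyadenylated-selected and sequenced on an Illumina NovaSeq, per the labels' protocols. The deposited table gives, per the file headers, raw read counts and FPKM values per library, and lists each gene's length in bases and its coordinates, whose build it does not name. FPKM was made by the authors, and recomputing it from the deposited counts and lengths gave values within 7e-05%. The submitters' processing notes name cutadapt and HISAT2 2.0.5. The counting program, its use of strand and the annotation release are not given by these sources. The counts of 11 of the 49 genes, whose spans overlap another gene, may thus include its reads or lack reads from shared bases.

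Samples were grouped by the genotype in the labels. Counts were tested with edgeR 4.0.16 (R 4.3.3): TMM scaling, filterByExpr (11380 genes kept, 10519 removed), glmQLFit and glmQLFTest without covariates, and Benjamini-Hochberg adjustment over all genes tested. The SE is the log2 fold change divided by the square root of the F statistic. Of the 21899 genes listed, 5754 had 0 reads everywhere. The test was checked on simulated data.

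Named were every gene of the 49 past the threshold, those with separate groups, the fibrinogen chains, the most and least abundant of each role, those not tested, and up to 12 further pathway genes with the smallest p. Others were named after their values were seen, and 2 further pathway genes are counted but not reported here by name. The members, the lists and their order by role were chosen with earlier results of these data known. Alternatives were library totals without TMM, keeping all genes, keeping genes at 1 CPM or more in 4 libraries, DESeq2 1.42.0, limma 3.58.1 after adding 1 or 0.1 to FPKM before taking log2 (genes at 0.5 FPKM or more in 4 libraries), the title number as a block, each library left out, and, added after seeing the data, both doubtful libraries left out (deficient 1 and wild type 1) and scaling to hepatocyte markers. Promoters are RefSeq's on GRCm38.p6.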

Additional observations from a re-analysis of the deposited data

Results flagged for a closer look

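Dixon's ratio, the gap of the highest or lowest library to its nearest neighbour divided by the range of the group, was computed for 47 genes in each group of 4 libraries. It exceeded the 95% critical value in 7 of 94 groups, where chance gives about 1 in 20. Wild type 1 stood apart in 3, with ratios of 0.971 for C2 (high), 0.895 for F2 (low) and 0.931 for Serpinc1 (low). Wild type 3 stood apart, high, in C8a (0.868) and Serpind1 (0.869). Deficient 1 stood apart, low, in Masp1 (0.95), and deficient 4, high, in C1s1 (0.869).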

How the results depend on the processing

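Under 17 alternatives the 13 lower genes had negative log2 fold changes in every one, and 4 of them, C9, Serpind1, F13b and F3, passed in each. With a library left out, the 49 genes gave 4 to 16 lower and 0 to 1 higher (C7, which is not among the 47 and was tested in some of these settings), all genes gave 528 to 1309 lower and 454 to 1079 higher, and the wider pathway list gave 8 to 14 lower and 0 to 3 higher. Counts were lowest without wild type 3 for all genes and for the 47. Without deficient 1 and wild type 1, 641 of all genes were higher and 808 lower. Library totals alone gave 1731 higher genes and 1 of the 47 (Mbl1), and limma on FPKM gave 1602 (pseudocount 1) and 1594 (pseudocount 0.1) and again 1 of the 47. Scaling to hepatocyte markers gave 2293 higher and 609 lower of all genes, 4 higher and 7 lower of the 47, 6 higher and 9 lower of the wider list, and a median of -0.081 for the 47. The 7 markers were negative on the TMM scale (median -0.354), so dividing by them raised the median of all genes.

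Genes near 0 that had not passed changed sign under some settings, and none passed there. C3 was at 0.06 with library totals, 0.034 in both limma fits on FPKM and 0.185 with hepatocyte scaling. Serping1 was at 0.039, 0.029, 0.029 and 0.168, and Kng2 at 0.008, 0.011, 0.011 and 0.168, with library totals, the limma fits and hepatocyte scaling. That scaling also turned C1s1 to 0.104, C8g to 0.059, Cd55 to 0.076, Clu to 0.032, Pros1 to 0.128 and Serpinf2 to 0.117. With a library left out, C3 ran from -0.229 to 0.02, C4bp from -0.105 to 0.098, Cd55 from -0.629 to 0.094, Tfpi from -0.084 to 0.477, F11 from -0.1 to 0.153 and F10 from -0.024 to 0.069. Leaving out deficient 1 and wild type 1 put Vtn at -0.024, Tfpi at -0.021 and F10 at -0.031. Of the other single-gene values, 126 kept their direction and lost the threshold and 16 gained it. Except as said above, the cause was not tested.

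No sign of pairing by the numbers in the titles was seen: deviations of same-numbered libraries correlated at -0.114 to 0.132, and 0 of 4 correlated best with its own number. With 4 libraries in each group, this cannot exclude a pairing. With the number as a replicate block, 12 of the 47 were lower and 0 higher, against 761 higher and 1007 lower of all genes. Depth limits Cfb, Cfd, C7, Tfpi, F8 and Cd55, which had few reads.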
